A study of Homo sapiens with 16 samples.

Results

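The data described here are the RNA levels of 10 genes that young neurons use to build their cytoskeleton and to bind RNA: STMN2, STMN4, TAGLN3, DCX, TUBB3, MAP2, GAP43, ELAVL3, ELAVL4 and INA. The genes were named as a list, without a threshold on these data, to read how much neuronal RNA each culture held. They were chosen with earlier results of these data known. All 10 were among the 57736 genes of the count file and all 10 passed the filter on low counts, which left 24249 genes. The study itself names TAGLN3 and STMN2, known neuronal markers, as genes that went up with TMG in these libraries, so their directions here are not independent evidence.

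The libraries came from H9, a human embryonic stem cell line, so every group is a single line in culture. Cells were taken through a cortical differentiation that blocks BMP and TGF-beta signalling, and total RNA depleted of ribosomal RNA was sequenced on day 0 (D0, undifferentiated), D12, D30 and D70. At each stage 2 control libraries received the solvent DMSO and 2 received 40 µM Thiamet-G (TMG), an inhibitor of the enzyme O-GlcNAcase that removes O-GlcNAc from proteins, and TMG was present throughout. Titles and descriptions agree on these 16 libraries, but a separate treatment tag names the other arm for 8 of them, and the titles were followed here. By that tag every replicate 1 would be a control and every replicate 2 a TMG culture, so differences given below between replicates 1 and 2 would then be differences between the arms.

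Library totals ran from 10334908 to 19836878 estimated counts, and the members held between 1160 counts (ELAVL4) and 63805 counts (MAP2) over all libraries. 3 libraries stood apart by the summed level of 10 mesenchymal markers such as COL1A1, given in CPM, the counts of a gene relative to the library total after scaling by the trimmed mean of M-values. These were D30 TMG replicate 2 at 31162 CPM, D70 control replicate 2 at 46687 CPM and D70 TMG replicate 2 at 62137 CPM, against 159 to 7489 CPM in the other 13, and all 3 are labelled replicate 2. Pigment epithelium and choroid plexus markers summed to 10458 and 2532 CPM in the D70 controls and to 3399 and 62.3 CPM with TMG. The pluripotent marker POU5F1 was between 824 and 893 CPM on D0 and at most 9.13 CPM later, and the progenitor factor PAX6 was at most 14.6 CPM on D0 and between 304 and 585 CPM on D12, which fits the labelled stages. In bulk RNA, fewer neurons in a culture and less of a transcript in each neuron cannot be told apart.

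A newborn neuron leaves the cell cycle, migrates and grows an axon, and each step needs microtubules that are built, bundled and taken down again. Stathmins take tubulin out of microtubules, doublecortin and MAP2 bind and stabilise them, GAP43 works at the growth cone membrane, and alpha-internexin forms intermediate filaments. The ELAVL proteins ELAVL3 and ELAVL4 bind AU-rich elements in neuronal messenger RNAs and keep them stable.

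Gene spans were taken from GENCODE v44 lifted to GRCh37. ELAVL4 spans chr1:50489701-50669444, MAP2 chr2:210288771-210598871, TAGLN3 chr3:111717586-111732734 and GAP43 chr3:115342357-115440337, all on the plus strand. INA spans chr10:105036895-105050103 and TUBB3 chr16:89987800-90005169 on the plus strand, while ELAVL3 spans chr19:11562141-11591861 and DCX chrX:110537007-110655657 on the minus strand. The reference transcripts have between 3 exons (GAP43 and INA) and 16 exons (MAP2). Exons of INA overlap those of NT5C2 on the other strand by up to 452 bases, and exons of TUBB3 and of ELAVL3 are shared with other genes on the same strand that held 126 and 31 counts in all. NT5C2 held 13936 counts in all, against 6122 for INA. No source used here says that counting kept strands apart, so INA counts may hold NT5C2 reads.

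The 250 bases before the annotated start are shown for the 4 members with the widest TMG differences on D30 among those with an entry in the RefSeq table (GRCh38.p14, all plus strand, first entry of each gene). Capitals mark the letters CAGCTG or CAGATG read on either strand (CATCTG is CAGATG on the other strand), which are forms of the E-box that basic helix-loop-helix factors bind. The windows are chr1:50109583-50109832 for ELAVL4, chr3:115623260-115623509 for GAP43, chr10:103276888-103277137 for INA and chr3:111998672-111998921 for TAGLN3.
ELAVL4: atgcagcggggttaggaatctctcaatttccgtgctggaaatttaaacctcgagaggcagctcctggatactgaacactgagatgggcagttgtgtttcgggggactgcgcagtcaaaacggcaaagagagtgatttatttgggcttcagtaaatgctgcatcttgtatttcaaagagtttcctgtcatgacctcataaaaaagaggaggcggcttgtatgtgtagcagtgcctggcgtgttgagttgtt
GAP43: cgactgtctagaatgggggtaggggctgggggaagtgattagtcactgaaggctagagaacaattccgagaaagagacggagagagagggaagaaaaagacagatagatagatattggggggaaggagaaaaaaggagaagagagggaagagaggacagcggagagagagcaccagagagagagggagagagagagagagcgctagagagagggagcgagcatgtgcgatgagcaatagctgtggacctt
INA: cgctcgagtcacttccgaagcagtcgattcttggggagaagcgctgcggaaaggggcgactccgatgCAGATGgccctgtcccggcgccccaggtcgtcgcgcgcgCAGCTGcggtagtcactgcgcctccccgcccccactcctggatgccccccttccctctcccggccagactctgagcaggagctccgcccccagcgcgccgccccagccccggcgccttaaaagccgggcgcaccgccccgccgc
TAGLN3: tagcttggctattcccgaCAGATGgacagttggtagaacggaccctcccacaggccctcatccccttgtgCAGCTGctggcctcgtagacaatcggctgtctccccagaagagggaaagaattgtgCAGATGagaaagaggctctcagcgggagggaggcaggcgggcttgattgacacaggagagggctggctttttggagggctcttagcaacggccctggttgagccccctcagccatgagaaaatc
The INA window held 1 CAGCTG and 1 CAGATG, and the TAGLN3 window held 1 CAGCTG and 2 CAGATG. Neither was found in the windows shown for ELAVL4 and GAP43. STMN2, STMN4 and ELAVL3 were not matched. Of the first entries of the other 7 members, 2 (28.6%) held at least 1 match, against 24.2% of the first entries of 27305 genes, a share near the background. Over all their 19 entries, several of which belong to 1 gene, 7 (36.8%) did, against 24.3% of 35116 windows of the same length. A match describes the sequence only.

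Among the stathmins, STMN2 is found in growing axons and STMN4 is a brain-enriched relative. STMN2 measured 6.06 and 8.46 CPM in the D0 controls, 24.6 and 17.5 CPM on D12, 20.3 and 16.7 CPM on D30, and 46.0 and 44.2 CPM on D70. Under TMG the level was 6.93 and 6.70 CPM on D0, 27.5 and 29.8 CPM on D12, 33.1 and 64.8 CPM on D30, and 76.8 and 1.29 CPM on D70. Both TMG libraries were above both controls on D12 and D30, and on D70 they lay on either side of the controls. STMN4 measured 0.927 and 1.68 CPM in the D0 controls, 8.70 and 6.57 CPM on D12, 24.4 and 20.4 CPM on D30, and 29.2 and 18.5 CPM on D70. TMG cultures gave 0.823 and 1.03 CPM on D0, 11.9 and 3.79 CPM on D12, 18.9 and 24.4 CPM on D30, and 33.7 and 0 CPM on D70. STMN4 arms overlapped at every stage.

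DCX encodes doublecortin, which bundles microtubules in migrating neurons. It measured 24.7 and 34.3 CPM in the D0 controls, 42.2 and 36.8 CPM on D12, 93.3 and 209 CPM on D30, and 513 and 152 CPM on D70. In the TMG arm it measured 39.0 and 37.3 CPM on D0, 66.2 and 75.5 CPM on D12, 249 and 307 CPM on D30, and 419 and 14.2 CPM on D70. DCX was the only member besides TAGLN3 whose TMG libraries were both above both controls on D0, D12 and D30. MAP2, a dendritic microtubule-associated protein, measured 47.3 and 85.5 CPM in the D0 controls, 272 and 576 CPM on D12, 263 and 260.0 CPM on D30, and 323 and 113 CPM on D70. With TMG, MAP2 measured 58.9 and 61.4 CPM on D0, 463 and 508 CPM on D12, 329 and 352 CPM on D30, and 327 and 89.2 CPM on D70. Its mean level was highest on D12 in both arms, and the arms separated on D30 alone.

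TUBB3, the neuronal beta-tubulin, was the member with the most RNA for its length in every control group. It measured 126 and 133 CPM in the D0 controls, 77.5 and 99.4 CPM on D12, 93.8 and 119.7 CPM on D30, and 215 and 157 CPM on D70. With TMG it measured 124 and 132 CPM on D0, 88.2 and 173 CPM on D12, 116 and 187 CPM on D30, and 256 and 88.3 CPM on D70. TUBB3 was higher in both D0 controls than in both D30 controls, and its arms overlapped at every stage. TAGLN3, an actin-binding protein of neurons, measured 5.50 and 10.9 CPM in the D0 controls, 24.5 and 21.6 CPM on D12, 9.40 and 13.3 CPM on D30, and 11.4 and 10.7 CPM on D70. Under TMG the level was 11.3 and 11.9 CPM on D0, 32.8 and 26.7 CPM on D12, 21.9 and 29.1 CPM on D30, and 24.7 and 0.832 CPM on D70. In the controls TAGLN3 was highest on D12, while both D30 TMG libraries were above both D30 controls.

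GAP43 and INA serve the growing axon. GAP43 measured 5.13 and 8.88 CPM in the D0 controls, 11.7 and 33.6 CPM on D12, 4.89 and 9.74 CPM on D30, and 31.6 and 19.4 CPM on D70. TMG cultures gave 7.34 and 7.78 CPM on D0, 23.5 and 39.0 CPM on D12, 17.2 and 65.5 CPM on D30, and 49.1 and 2.96 CPM on D70. The arms of GAP43 separated on D30 alone, where the TMG libraries differed from each other by far more than the controls did. INA measured 15.02 and 22.7 CPM in the D0 controls, 17.8 and 24.0 CPM on D12, 8.74 and 8.68 CPM on D30, and 38.4 and 32.5 CPM on D70. In the TMG arm it measured 21.8 and 20.8 CPM on D0, 20.8 and 16.2 CPM on D12, 26.4 and 62.0 CPM on D30, and 74.9 and 21.4 CPM on D70. The D30 controls were the lowest of all 16 libraries for INA.

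Of the RNA-binding members, ELAVL3 measured 5.44 and 7.34 CPM in the D0 controls, 11.2 and 8.38 CPM on D12, 5.45 and 8.38 CPM on D30, and 26.7 and 21.8 CPM on D70. With TMG it measured 4.87 and 5.10 CPM on D0, 7.90 and 12.2 CPM on D12, 12.7 and 31.3 CPM on D30, and 33.3 and 0.832 CPM on D70. TMG libraries of ELAVL3 were both below the controls on D0 and both above them on D30. ELAVL4 had the lowest mean level for its length in each control group. It measured 0.927 and 2.17 CPM on D0, 7.22 and 3.39 CPM on D12, 1.69 and 1.81 CPM on D30, and 6.56 and 2.33 CPM on D70. Under TMG the level was 2.20 and 1.91 CPM on D0, 6.60 and 6.46 CPM on D12, 9.42 and 14.5 CPM on D30, and 11.2 and 2.59 CPM on D70. As with INA, both D30 TMG libraries of ELAVL4 lay well above both D30 controls.

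**Figure D1:**
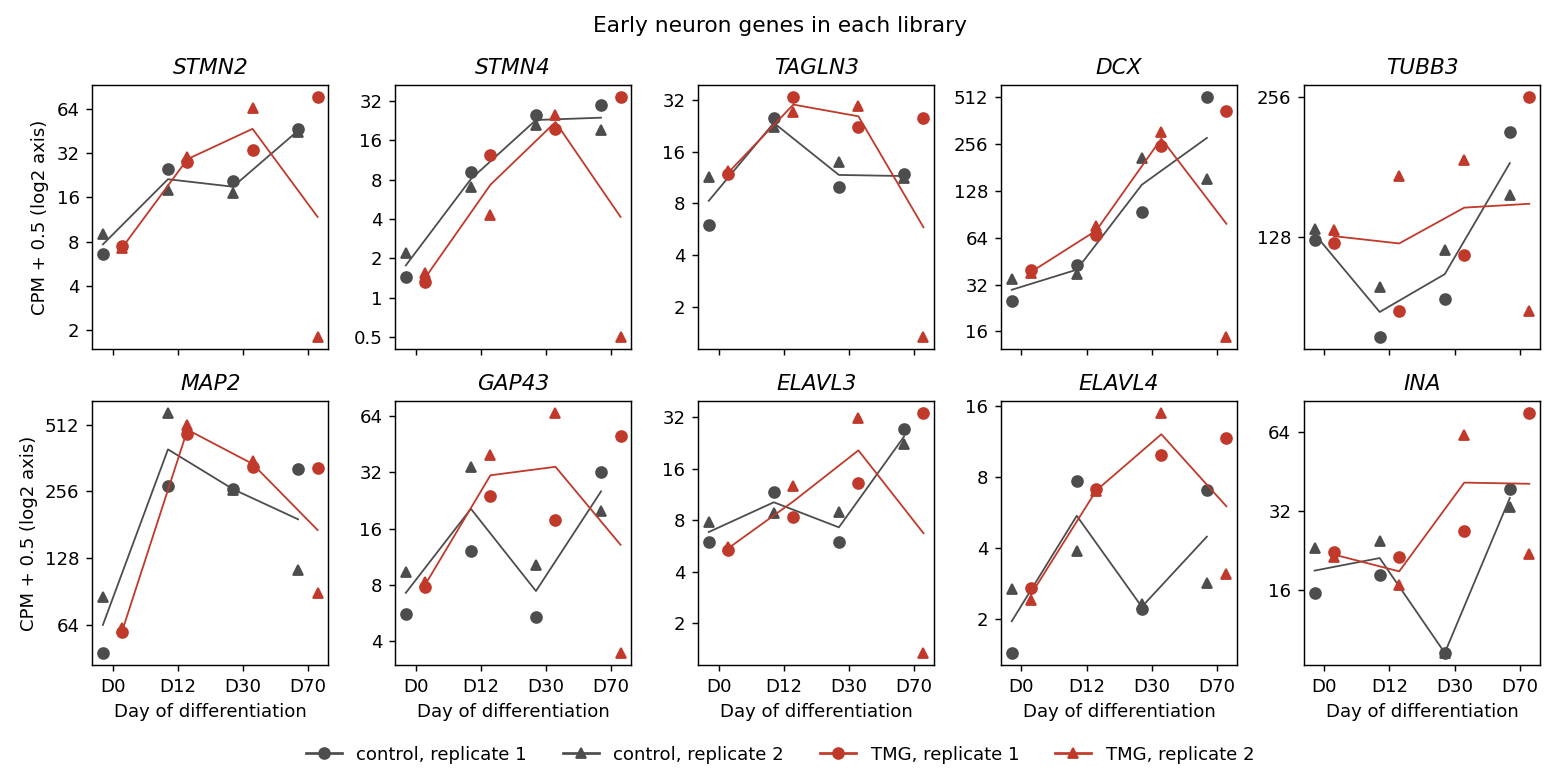
Level of each early neuron gene in each library by day of differentiation, as CPM with 0.5 added on a log2 axis; grey is control, red is TMG, circles are replicate 1, triangles are replicate 2, and lines join the geometric means of 2 libraries. D70 TMG replicate 2 lies far below the other D70 libraries for STMN2, STMN4, TAGLN3, DCX, GAP43 and ELAVL3, and TMG libraries lie above the controls on D30 for 8 of 10 genes.

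Levels of different genes were compared per kilobase of the reference transcript. In the D0 controls TUBB3 stood at 75.9 ± 2.92 CPM per kilobase (SD, n = 2), followed by TAGLN3 at 7.27 ± 3.39 and MAP2 at 6.88 ± 2.80, which did not differ beyond their spread. On D12 the controls gave 51.8 ± 9.08 CPM per kilobase for TUBB3, 43.9 ± 22.3 for MAP2 and 20.4 ± 1.81 for TAGLN3. On D70 they gave 109 ± 24.0 for TUBB3, 36.6 ± 28.1 for DCX, 23.7 ± 0.686 for STMN2 and 22.6 ± 15.4 for MAP2, and the last 3 overlapped within 1 SD. ELAVL4 was last in each of these orders, at 0.390 ± 0.221, 1.34 ± 0.683 and 1.12 ± 0.753 CPM per kilobase. It overlapped the next member within 1 SD on D0 (STMN4, 0.561 ± 0.229) and D12 (ELAVL3, 2.06 ± 0.422). On D70 it did not (ELAVL3, 5.12 ± 0.736).

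From D0 to D12, as stem cells became neural progenitors, most members were higher but MAP2 alone passed the test. In the controls 9 of 10 members were higher on D12, with a median log2 fold change of 1.52 against 0.00 over all genes tested. MAP2 rose by 2.67 ± 0.64 on the log2 scale (estimate ± SE, adjusted p = 0.0186, edgeR quasi-likelihood test), and 6.97% of all genes tested were called higher and 9.71% lower in this comparison. DESeq2 called MAP2 too, with 9.64% and 12.9% of genes. STMN4 had an estimate of 2.55 ± 1.43, ELAVL4 1.78 ± 0.72, GAP43 1.69 ± 1.02, STMN2 1.54 ± 1.06 and TAGLN3 1.49 ± 0.91, none of them called. TUBB3 was the exception with an estimate of -0.55 ± 0.45. Markers of other cells changed too. Of 7 tested peripheral neuron and neural crest markers 6 were higher (median 3.57), and SOX10 and POU4F1 were called. The list summed to 32.5 and 70.9 CPM on D0 and 152 and 176 CPM on D12. Of 10 mesenchymal markers 7 were higher (1.57), with PDGFRA called. All 6 pluripotent markers were lower (-5.48), as were 7 of 8 proliferation markers (-1.11). The part of these markers in the members' change was not tested.

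The same step under TMG gave the same count. MAP2 rose by 3.01 ± 0.65 on the log2 scale (adjusted p = 0.0117, edgeR), 9 of 10 members were higher, the median was 1.51, and 7.24% of all genes tested were called higher and 9.19% lower. In DESeq2, which also called MAP2, these shares were 10.3% and 12%. All 7 tested peripheral neuron and neural crest markers were higher under TMG (median 5.27), with SOX10, TFAP2A, ISL1 and POU4F1 called in edgeR. All 10 mesenchymal markers were higher (2.995), with PDGFRA called. All 6 pluripotent markers (-5.303) and all 8 proliferation markers (-1.18) were lower. The part of these markers in the members' change was not tested. With a block on replicate number 2 members were called in each arm, with the shares of all genes given under the processing below. The MAP2 call in the controls was lost without D0 control replicate 1 or 2 or D12 control replicate 2 (adjusted p between 0.056 and 0.13), and under TMG without D0 TMG replicate 1 or 2 (0.0923 and 0.0905). The fit shares its spread with the D70 TMG libraries, which are no part of this step: without either one, MAP2, STMN2, STMN4, TAGLN3 and ELAVL4 were called higher on D12 in the controls, and 22% of all genes were called in either direction. Under TMG, leaving out either one gave calls for MAP2, STMN2, STMN4 and TAGLN3, again with 22% of all genes.

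Genes beside the members did not move as one. Of 22 other microtubule and transport genes, 3 rose and 3 fell from D0 to D12 in the controls: MAP6 by 3.09 ± 0.87 and MAP1A by 2.93 ± 0.34, both of which bind microtubules, were higher, while DCLK1, a doublecortin-like kinase, had -2.29 ± 0.62 and the stathmin STMN3 -2.07 ± 0.45. Of 15 other neuronal RNA-binding genes, 2 rose and 3 fell. CELF6 had 4.94 ± 0.97 and RBFOX1, a splicing regulator, 4.55 ± 0.86, whereas KHDRBS2 had -1.79 ± 0.38 and SRRM3 -1.78 ± 0.51. The neurofilament NEFH fell by 1.56 ± 0.37 on the log2 scale, and none of 7 growth cone and actin genes was called.

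Between D12 and D30 in the controls, estimates were negative for most members and positive for DCX, STMN4 and TUBB3. The median was -0.60, against -0.04 over all genes, 7 of 10 members were lower, and no member was called in edgeR, where 1.91% of genes were called higher and 1.69% lower, nor in DESeq2 (5.87% and 4.39%). DCX had an estimate of 1.94 ± 1.04 and STMN4 1.55 ± 1.32. GAP43 had -1.62 ± 1.02, ELAVL4 -1.60 ± 0.71, INA -1.26 ± 0.53 and TAGLN3 -1.02 ± 0.90. INA and ELAVL4 had an unadjusted p of 0.036 and 0.047, as did 20.4% of all genes at an unadjusted p under 0.05. Fitted on the 4 libraries alone, edgeR called 5 members, STMN4 and DCX higher and TAGLN3, ELAVL4 and INA lower, with 7.93% of all genes called higher and 5.81% lower. DCX alone was called (adjusted p = 0.049) when either D70 TMG library was left out, with 6.36% and 6.39% of all genes called in either direction. Markers of other cells moved in the same step. Of 7 tested peripheral neuron and neural crest markers 6 were lower, with a median of -3.88, and SOX10, FOXD3 and POU4F1 were called lower; their sum was 152 and 176 CPM on D12 and 26.1 and 39.1 CPM on D30, with FOXD3 and TFAP2B at 0 in D30 control replicate 1. All 8 proliferation markers were lower, with a median of -1.42, and MKI67, MCM2 and TYMS were called (sums of 914 and 826 CPM on D12 and 317 and 297 CPM on D30). Of 10 mesenchymal markers 9 had positive estimates and none was called. The part of these markers in the members' change was not tested.

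Under TMG the estimates of this step were mostly positive. The median from D12 to D30 was 0.82, 8 of 10 members were higher, and none was called in edgeR (0.388% of genes higher, 0.124% lower) or DESeq2 (3.11% and 1.67%). INA alone had an unadjusted p under 0.05, as did 15% of all genes. Leaving out a single library moved the median between 0.28 and 1.16. In this step all 10 mesenchymal markers had positive estimates (median 4.95), as had all 7 glutamatergic markers (2.11). The water channel AQP1 was called higher. Of 7 tested peripheral neuron and neural crest markers 6 were lower (median -2.95), as were all 8 proliferation markers (-0.69). The part of these markers in the members' change was not tested. Whether this step differed between the arms was tested as an interaction. INA gave a difference of 2.52 ± 0.74 on the log2 scale (unadjusted p = 0.0061, adjusted p = 1, edgeR) and ELAVL4 2.47 ± 0.98 (unadjusted p = 0.029, adjusted p = 1), with a median of 0.88 over the members and 0.01 over all genes, so no difference between the arms passed the test. Of all genes, edgeR called 0% and DESeq2 0.0371% higher and 0.033% lower. Leaving out a single library moved the median difference of the members between 0.48 and 1.17.

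On D30 itself 9 of 10 members had higher estimates with TMG than in the controls, and none passed the test. ELAVL4 was higher by 2.76 ± 0.74, GAP43 by 2.49 ± 1.05, INA by 2.34 ± 0.54, ELAVL3 by 1.66 ± 1.02, STMN2 by 1.41 ± 1.05 and TAGLN3 by 1.16 ± 0.91 on the log2 scale. DCX had 0.88 ± 1.01, TUBB3 0.51 ± 0.45, MAP2 0.38 ± 0.60 and STMN4 -0.05 ± 1.28. The median was 1.28 against 0.01 over all genes tested. For 8 members both TMG libraries were above both controls, as they were for 23.1% of all genes.

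None of these differences passed the edgeR test at a false discovery rate of 5%, where 0% of genes were called in either direction. The lowest adjusted p were 0.185 for INA (unadjusted 0.0013) and 0.22 for ELAVL4 (unadjusted 0.0032), and GAP43 had an unadjusted p of 0.037. These 3 of 10 members were under an unadjusted p of 0.05, as were 12% of all genes. DESeq2 called INA (adjusted p = 0.0026) and ELAVL4 (adjusted p = 0.012), and called 1.56% of all genes higher and 0.903% lower. With D30 TMG replicate 2 left out, which is the library rich in mesenchymal markers and the higher one for each member, the median was 0.86. The estimates were then 2.42 for ELAVL4, 1.60 for INA, 1.22 for GAP43, 0.94 for TAGLN3, 0.87 for ELAVL3, 0.84 for STMN2, 0.72 for DCX, 0.33 for MAP2, 0.12 for TUBB3 and -0.24 for STMN4, so that those of GAP43, ELAVL3, STMN2, TUBB3 and STMN4 moved by over 1.5 times. Leaving out each library in turn moved the D30 estimate of DCX between 0.41 and 1.58. With a block on replicate number, ELAVL4 was called (adjusted p = 0.0474, edgeR), with 0.66% of all genes called higher and 0.301% lower.

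Markers of other cell types were compared in the same D30 libraries. None of them passed the edgeR test, where 0% of all genes were called, so the counts below give the sign of the estimates, and their part in the members' difference was not tested. All 10 mesenchymal markers had positive estimates with TMG, summing to 4402 and 5333 CPM in the controls and 5839 and 31162 CPM with TMG, and none was at 0. All 7 glutamatergic markers had positive estimates (27.2 and 31.1 against 53.0 and 179 CPM), with NEUROD6 at 0 in control replicate 1. All 7 tested peripheral neuron and neural crest markers did so (26.1 and 39.1 against 77.0 and 82.6 CPM), with FOXD3 and TFAP2B at 0 in control replicate 1. All 8 proliferation markers had positive estimates (317 and 297 against 379 and 732 CPM), as had all 5 astroglia markers (9.96 and 13.3 against 34.9 and 71.6 CPM) and 9 of 10 pigment epithelium and choroid plexus markers (202 and 318 against 414 and 423 CPM). By contrast, 7 of 9 tested radial glia and progenitor markers had negative estimates, with a median of -0.24. Their sums overlapped between the arms (2916 and 3145 against 2693 and 3774 CPM). SLC1A3 of this list, picked out after its value was seen, had a positive estimate of 2.88 ± 0.73 (adjusted p = 0.206, edgeR). Of 7 synaptic and mature neuron markers 3 were positive and 4 negative, with a median of -0.09. The synaptic list summed to 175 and 177 CPM in the controls against 159 and 146 CPM with TMG. Its mean log2 CPM went the other way, with 3.50 and 3.67 in the controls against 3.77 and 3.83 with TMG. Of 6 pluripotent markers 5 had positive estimates, with a median of 1.65, and their mean log2 CPM was 0.53 and 0.43 in the controls and 2.56 and 1.5002 with TMG. Their sums, mostly LIN28A and DPPA4, overlapped between the arms (51.1 and 29.0 against 66.4 and 25.8 CPM). POU5F1, picked out after its value was seen, had 4.65 ± 0.58 (adjusted p = 0.0868, edgeR). It measured 0.0940 and 0.401 CPM in the controls and 9.13 and 5.49 CPM with TMG. Under TMG it rose from D12 to D30 (adjusted p = 0.0181, edgeR).

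Among other neuronal lists on D30, the glutamatergic markers had a median of 2.33 and the peripheral neuron and neural crest markers 2.92, above the 1.28 of the members, and the lists of cytoskeleton and RNA-binding genes were below it. Of 22 microtubule and transport genes, 18 had positive estimates with TMG and none was called, with a median of 0.57. STMN3, picked out after its value was seen, had 2.31 ± 0.46 (adjusted p = 0.155, edgeR). Of 15 neuronal RNA-binding genes 12 were higher, with a median of 0.65 and none called, and RBFOX2, the most abundant, had 1.01 ± 0.32. Of 8 progenitor RNA-binding genes 4 were higher and 4 lower, with a median of -0.03.

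**Figure D2:**
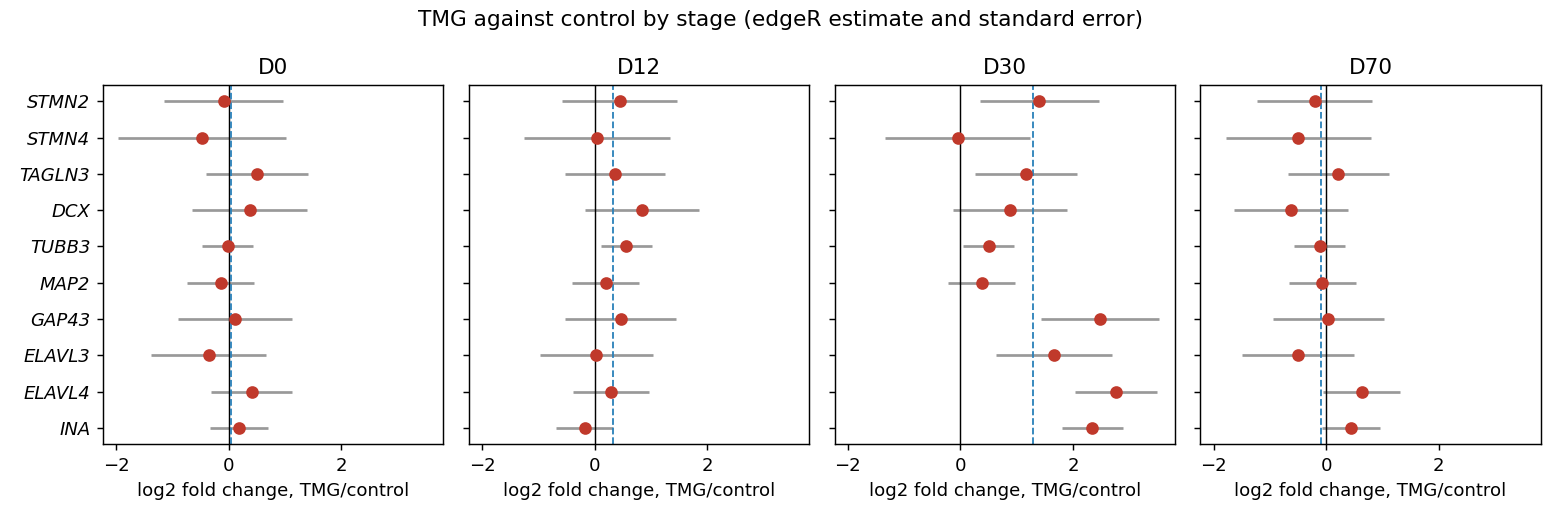
Log2 fold change of TMG against control for each early neuron gene on D0, D12, D30 and D70; points are edgeR estimates, bars are 1 standard error, and the dashed blue line is the median of the 10 genes. The median lies at 0.05, 0.33, 1.28 and -0.09, and no gene was called.

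On D0 and D12 the differences were smaller. On D0 5 of 10 members were higher with TMG, with a median of 0.05 and estimates between -0.47 and 0.50, and on D12 9 of 10 were higher with a median of 0.33 and estimates between -0.18 and 0.84. Both TMG libraries were above both controls for TAGLN3 and DCX on D0 (19.7% of all genes) and for STMN2, TAGLN3 and DCX on D12 (17.8%), and below both for ELAVL3 on D0 (16.9%). No member was called at either stage in edgeR or DESeq2, and none had an unadjusted p under 0.05 in edgeR, against 1.26% and 2.48% of all genes. DESeq2 called 0.0124% of genes higher and 0.00825% lower on D0, and 0.0371% and 0.00825% on D12. Leaving out a single library moved the D0 median between -0.16 and 0.43. On D12, TMG replicate 2 also had the highest sum of neural crest markers, 587 CPM against 152 to 190 CPM in the other 3 libraries. Of 10 mesenchymal markers 9 had positive TMG estimates on D12 (median 1.10), as had 6 of 7 tested neural crest markers (1.40). Of 10 pigment epithelium and choroid plexus markers 7 were positive (1.06), and of 9 tested radial glia and progenitor markers 7 were negative (-0.33). None of these was called in edgeR, and their part in the members' difference was not tested.

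From D30 to D70 in the controls 8 of 10 members had positive estimates, with a median of 1.21 against 0.07 over all genes. INA had 2.02 ± 0.54 (adjusted p = 0.103, edgeR), ELAVL3 1.80 ± 1.03, GAP43 1.79 ± 1.02, ELAVL4 1.34 ± 0.71, STMN2 1.29 ± 1.05 and DCX 1.14 ± 1.02. TUBB3 had 0.80, STMN4 0.09, TAGLN3 -0.05 and MAP2 -0.26. Leaving out a single library moved DCX between 0.011 and 1.83 and ELAVL4 between 0.41 and 1.86. No member was called in edgeR, where 0.305% of genes were called higher and 0.0784% lower. INA was called by DESeq2 (adjusted p = 0.0069), with 4.46% and 2.62% of genes, and without D70 TMG replicate 2 edgeR called INA and ELAVL3 (adjusted p = 0.0262 and 0.0485), with 2.99% of all genes called in either direction. With a block on replicate number 4 members (TUBB3, GAP43, ELAVL4 and INA) were called higher, with 8.5% of all genes higher and 4.82% lower, the median was 2.57, and the estimates of TAGLN3 and MAP2 turned to 1.46 and 0.42. The stathmin STMN3, outside the list, rose by 2.53 ± 0.46 (adjusted p = 0.048). In the same step all 10 mesenchymal markers had positive estimates, with a median of 2.99, and summed to 4402 and 5333 CPM on D30 and 7489 and 46687 CPM on D70. All 10 pigment epithelium and choroid plexus markers did so too, with a median of 4.70 and sums of 202 and 318 CPM on D30 and 10458 and 2532 CPM on D70, and the water channel AQP1 rose by 4.30 ± 0.54 (adjusted p = 0.0181, edgeR). The glutamate transporter SLC1A3 rose by 5.24 ± 0.80 (adjusted p = 0.0279, edgeR). The part of these markers in the members' change was not tested.

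The 2 TMG libraries of D70 differed more from each other than any other pair of replicates by the mean log2 CPM of these genes. TMG replicate 1 ranked first of all 16 libraries by the mean scaled level of the members, and replicate 2 ranked last. Replicate 2 had 0 counts of STMN4, 9 of TAGLN3, 9 of ELAVL3 and 14 of STMN2, and replicate 1 was at least 122-fold higher for STMN4, with the floor at 3 counts in replicate 2. It was 59.3-fold higher for STMN2, 40.1-fold for ELAVL3, 29.7-fold for TAGLN3, 29.4-fold for DCX and 16.6-fold for GAP43. For ELAVL4, MAP2, INA and TUBB3 it was 4.33-, 3.67-, 3.51- and 2.90-fold higher. Replicate 2 was the lowest of all 16 libraries for 6 of 10 members, as it was for 17.2% of all genes tested.

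The group comparisons on D70 therefore rest on which of these cultures is read. With both, the TMG median was -0.09, 4 of 10 members were higher, the arms overlapped for every member, and none was called by edgeR or DESeq2, where DESeq2 called 0.12% of genes higher and 0.107% lower. No member had an unadjusted p under 0.05 in edgeR, against 5.49% of all genes. Without TMG replicate 2 the median was 0.68 and no member was called. Leaving out either makes the TMG arm a single culture, whose spread is then assumed to be that of the other groups. Without TMG replicate 1 the median was -3.41, and STMN2, STMN4, TAGLN3, DCX and ELAVL3 were called lower, with 3.3% of all genes called in either direction. From D30 to D70 under TMG the median was -0.36 with both libraries, 0.59 without replicate 2 and -4.04 without replicate 1. No member was called with both, in edgeR (0.00412% of genes higher, 0.00412% lower) or DESeq2 (1.2% and 0.33%), and 5 were called lower without replicate 1, where 6.76% of all genes were called in either direction. The TMG effect on D70 against that on D30 was lower for all 10 members, with a median of -1.56. Leaving out a single library moved that median between -5.15 and -0.59. With all libraries no member was called in edgeR or in DESeq2 (0.0371% of genes higher, 0.0619% lower). INA had -1.90 ± 0.73 (unadjusted p = 0.0256) and ELAVL4 -2.13 ± 0.99. In this comparison all 10 mesenchymal markers were lower (median -2.57), as were all 10 pigment epithelium and choroid plexus markers (-2.62). All 7 glutamatergic markers (-1.32) and all 8 proliferation markers (-0.52) were lower too. Of 9 tested radial glia and progenitor markers 5 were higher and 4 lower. The part of these markers in the members' difference was not tested. Without D70 TMG replicate 1, 6 members were called lower, with 1.59% of all genes called in either direction.

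**Figure D3:**
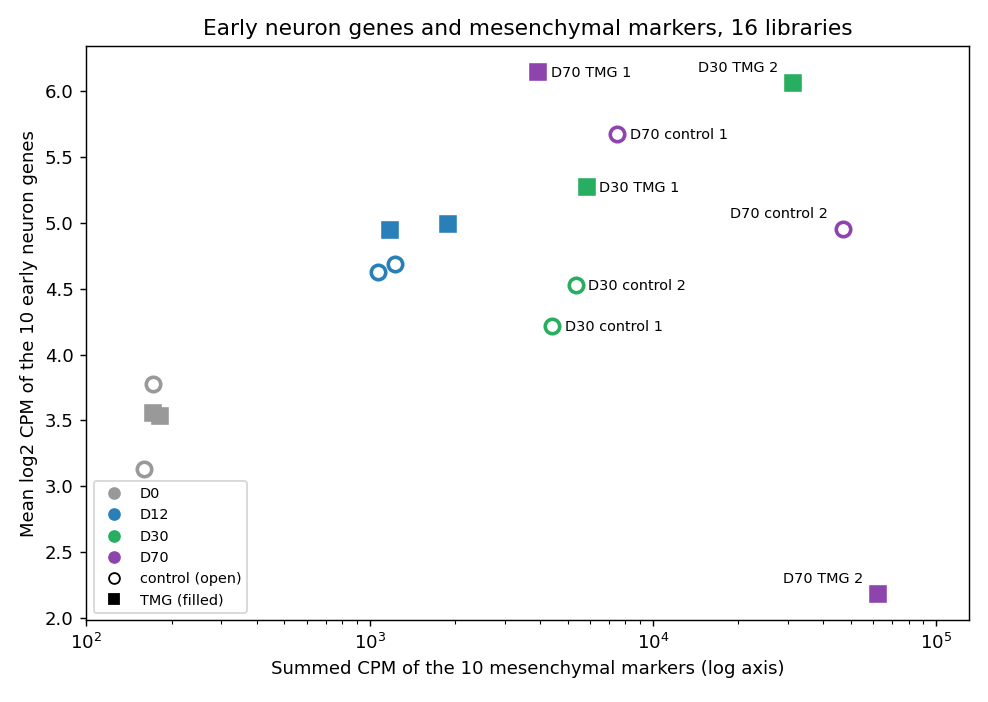
Mean log2 CPM of the 10 early neuron genes against the summed CPM of 10 mesenchymal markers (log axis) in 16 libraries, coloured by stage, open for control and filled for TMG. D70 TMG replicate 2 combines the highest mesenchymal sum, 62137 CPM, with the lowest early neuron level, whereas D30 TMG replicate 2 has 31162 CPM and the second highest early neuron level.

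D70 control replicate 2, with 46687 CPM of mesenchymal markers, was below replicate 1 for all 10 members, with a mean log2 CPM of 4.96 against 5.68. The fold between these controls ran from 1.04 for STMN2 and 1.06 for TAGLN3 to 2.81 for ELAVL4, 2.85 for MAP2 and 3.37 for DCX. D70 TMG replicate 2 also differed in other lists, and the genes named from them here were picked out after their values were seen. The radial glia and progenitor markers summed to 2207 CPM there against 2736 to 4915 CPM in the other D70 libraries. VIM made up 1612 CPM of that sum. PAX6 was at 2.50 against 306 to 587 CPM. Like PAX6, SOX2 (22.7 CPM), NES (71.03 CPM), HES5 (1.48 CPM) and FABP7 (1.94 CPM) were at their lowest of all 16 libraries. By contrast, NOTCH1 was at 359 against 103 to 299 CPM, and HES1 and SLC1A3 were within the range of the others. The peripheral neuron and neural crest markers summed to 307 CPM against 30.02 to 78.0 CPM, with TFAP2A at 169 against 1.61 to 43.7 CPM, while PRPH (0.555 CPM) and SOX10 (1.29 CPM) were below the other D70 libraries and FOXD3 was at 0. The choroid plexus gene TTR was 0.277 CPM against 198 to 9812 CPM. The 22 other microtubule and transport genes had a mean log2 CPM of 4.85 in that library against 7.13 in TMG replicate 1, and of these only MAP1A was not lower there (143 against 132 CPM). The part of these other cells in the members' levels was not tested.

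**Figure D4:**
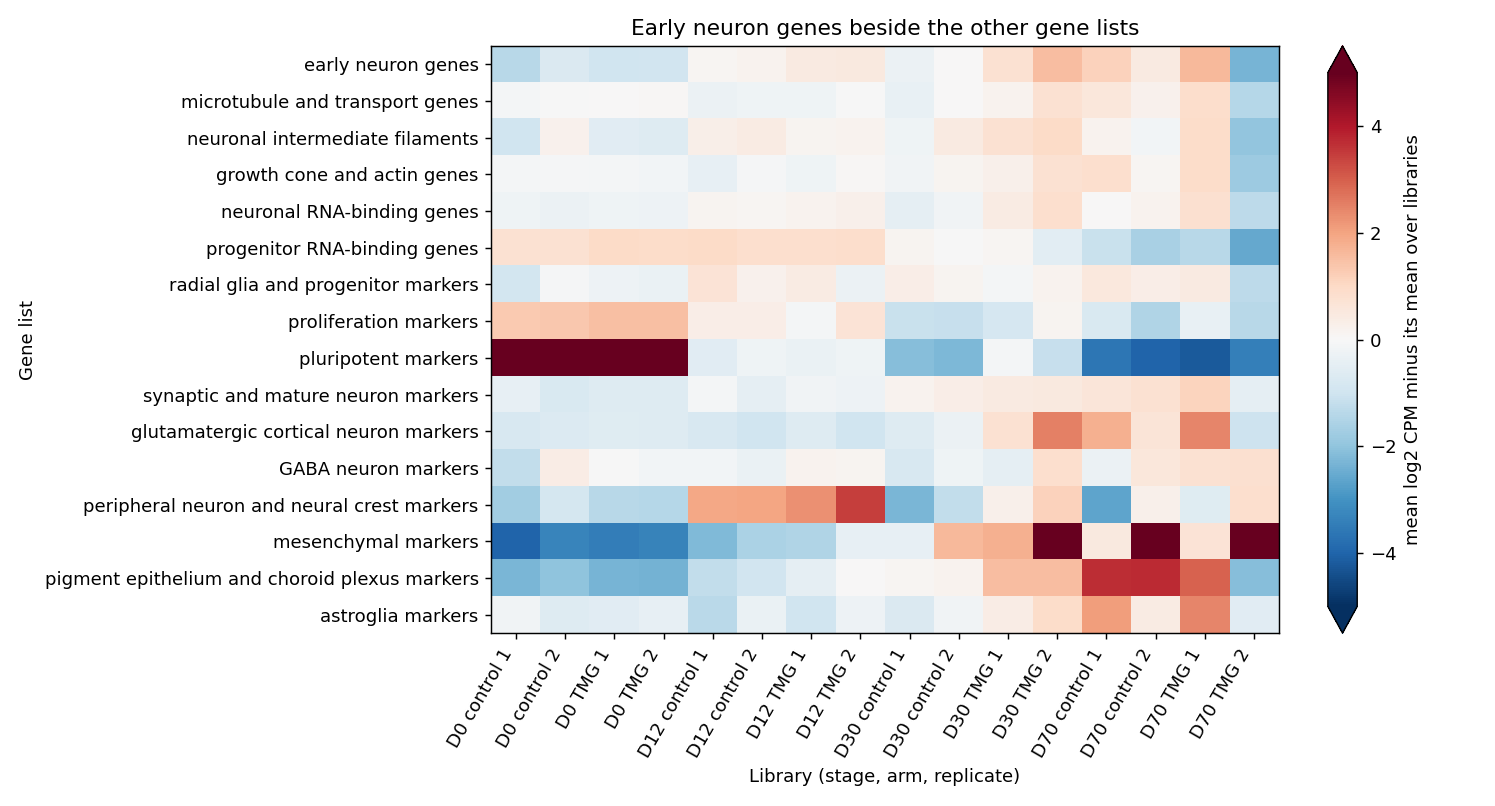
Mean log2 CPM of each gene list in each library, minus its mean over the 16 libraries; rows are lists, columns are libraries, and the colour scale ends at its arrows. The early neuron row is highest in D70 TMG replicate 1 and D30 TMG replicate 2 and lowest in D70 TMG replicate 2.

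Members followed each other to unequal degrees. Over the 16 libraries, each member's log2 CPM was set against the mean scaled level of the other 9. Pearson's r was 0.94 for STMN2, 0.92 for ELAVL3 and 0.91 for GAP43, and lowest for MAP2 (0.64), TUBB3 (0.56) and INA (0.56). Over 45 pairs of members the median r was 0.67, from 0.09 for TUBB3 with MAP2 to 0.95 for STMN2 with ELAVL3. The points share stages, arms and the D70 TMG library that was lowest for 6 of 10 members, so these values are a description.

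The genes outside the list whose profile was most like the members' mean, among 11555 named genes with at least 10 CPM on average, were ST8SIA2 (r = 0.94), which adds polysialic acid to NCAM, RTN1 (0.93), a reticulon of the neuronal endoplasmic reticulum, CELF3 (0.93), an RNA-binding protein, the chemokine receptor CXCR4 (0.92) and APC2 (0.92), a neuronal relative of APC. The 3 least alike were METTL8 (-0.95), LDAF1 (-0.88) and OXSR1 (-0.88). ST8SIA2 was 83.8 CPM in D70 TMG replicate 1 and 4.44 CPM in replicate 2, and METTL8 was 12.96 and 64.1 CPM.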

How the data were processed

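RNA-seq of 16 H9 libraries was used. The authors aligned reads with Bowtie2 to hg19, and RSEM 1.2.12 gave the deposited estimated counts per Ensembl gene, which are not normalized. They are whole numbers in the file, and how the estimates were rounded is not given in the sources used here. The study calls the 2 libraries of a group biological replicates. Tests used edgeR 4.0.16 (R 4.3.3; trimmed mean of M-values, filterByExpr with a minimum count of 10 and total of 15, robust quasi-likelihood F-test), with 1 mean for each of 8 groups and 8 residual degrees of freedom. The Benjamini-Hochberg method set a false discovery rate of 5% over 24249 genes within each comparison. Alternatives were DESeq2 1.42.0, RLE size factors, no filter, a replicate block, the compared libraries alone, each library left out and, chosen after seeing the data, the 3 mesenchymal-rich libraries left out. Log2 CPM for profiles used a prior count of 2. Scripts were tested on simulated counts. The members and gene lists were chosen with earlier results of these data known. From the other lists, at most 4 called genes with the largest change were named, or at most 2 of the most abundant where none was called. Genes said to be picked out after their values were seen fall outside this rule. By Pearson's r with the members' mean profile, the 5 genes most alike and the 3 least alike were named. NEFL and MARCKS were not analysed here. Intervals of counting error are small beside the spread between replicates, whose chi-square per degree of freedom was between 25.5 and 159. P-values measure the spread between these cultures of 1 line.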

Additional observations from a re-analysis of the deposited data

Results flagged for a closer look

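ELAVL3 was singled out because its estimated TMG effect had opposite signs at 2 stages: both TMG libraries lay below both controls on D0 (log2 fold change -0.36 ± 1.01, edgeR, unadjusted p = 0.73, with 4.87 and 5.10 against 5.44 and 7.34 CPM) and above both on D30 (1.66 ± 1.02, unadjusted p = 0.13, with 12.7 and 31.3 against 5.45 and 8.38 CPM). Neither effect was called. The libraries lay in this order for 16.9% of all genes on D0 and 23.1% on D30. The difference between D0 and D30 was not tested. Whether a single library was an outlier was not tested.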

How the results depend on the processing

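Depth limits ELAVL4 and STMN4 on D0, with 15 to 37 and 12 to 24 counts a library. All values below are counts of members called or log2 fold changes, and the cause of a change was not tested unless a library is named. For TMG on D30, where edgeR called 0 members, DESeq2 called 2 (all genes: 1.56% higher, 0.903% lower) and the replicate block 1 (0.66% and 0.301%). From D0 to D12 in control (1 called), no filter gave 0, the compared libraries alone 4 (11% higher, 13.3% lower) and the 3 mesenchymal-rich libraries left out 6 (33.9% of all genes in either direction, as for the other shares of this setting). Under TMG (1 called) the last 2 gave 8 (18.1% higher, 19.3% lower) and 7 (33.3%). From D12 to D30 in control (0 called) they gave 5 (7.93% and 5.81%) and 5 (17.6%). From D30 to D70 in control (0 called) DESeq2 gave 1 (4.46% and 2.62%). Without the mesenchymal-rich libraries the median of this step was 1.53. In that setting the D30 TMG, D70 control and D70 TMG groups each held a single library. Their spread was then assumed to be that of the other groups.

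With the replicate number within each stage as a block, 2 members were called from D0 to D12 in each arm (all genes: 9.35% higher and 12.1% lower in control, 10% and 11.7% with TMG), with a TMG median of 1.69, and 4 from D30 to D70 in control (8.5% and 4.82%, median 2.57), while the D12 to D30 control median was -0.71. Estimates that changed sign under the block were STMN4 for TMG on D12 (-0.14), TAGLN3 and GAP43 for TMG on D70 (-0.77 and -0.85), and TAGLN3 and MAP2 from D30 to D70 in control (1.46 and 0.42). No source used here says that a number marks a shared culture or day. Differences between replicates correlated between the arms with r = 0.045 at D0, 0.37 at D12, 0.22 at D30 and 0.61 at D70 across 24249 genes, with 2 numbers a stage. Without the mesenchymal-rich libraries the TMG estimates on D70 turned to 0.75 (STMN2), 0.22 (STMN4), 0.26 (TUBB3), 0.035 (MAP2) and 0.33 (ELAVL3), and MAP2 from D30 to D70 in control to 0.29.

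Leaving out each library in turn moved the members called from 0 to 5 for TMG on D70, 0 to 5 and 0 to 4 from D0 to D12 in control and TMG, 0 to 1 from D12 to D30 and 0 to 2 from D30 to D70 in control, 0 to 5 from D30 to D70 under TMG and 0 to 6 for the TMG effect on D70 against D30. The medians ran from 0.22 to 0.33 for TMG on D12, -3.41 to 0.68 for TMG on D70, 1.18 to 1.93 from D0 to D12, -0.77 to -0.52 from D12 to D30 and 0.49 to 1.497 from D30 to D70 in control, -4.04 to 0.59 from D30 to D70 under TMG, and -5.15 to -0.59 for the TMG effect on D70 against D30. Single estimates that changed sign for TMG on D12 ran from -1.01 to 0.64 (STMN4), -0.0039 to 0.97 (TUBB3), -0.25 to 0.84 (MAP2), -0.11 to 1.42 (GAP43), -0.31 to 0.31 (ELAVL3), -0.15 to 0.94 (ELAVL4) and -0.38 to 0.054 (INA), and on D30 from -0.24 to 0.12 (STMN4). For TMG on D70 they ran from -5.11 to 0.77 (STMN2), -11.51 to 0.50 (STMN4), -3.72 to 1.16 (TAGLN3), -4.55 to 0.51 (DCX), -1.08 to 0.46 (TUBB3), -1.29 to 0.88 (MAP2), -3.10 to 0.95 (GAP43), -4.85 to 0.46 (ELAVL3), -0.79 to 1.57 (ELAVL4) and -0.73 to 1.08 (INA). The size of -11.51 depends on the fit, since D70 TMG replicate 2 had 0 counts of STMN4: with the floor at 3 counts in that library, STMN4 was at least 85.9-fold lower than the control mean of 23.8 CPM. In control they ran from -0.12 to 0.48 for INA from D0 to D12, -0.41 to 0.077 for STMN2 from D12 to D30, and -0.27 to 0.34 (STMN4), -0.27 to 0.23 (TAGLN3) and -1.21 to 0.26 (MAP2) from D30 to D70. Over all alternatives, 484 counts and medians stayed within 1.5 times the count or 1 replicate SD of the median and 44 did not. Of the single estimates, 1331 kept sign and call, 43 changed sign, 50 became called and 6 lost their call.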
